A study of Mus musculus with 6 samples.

Results

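The subject is the T-ALL response that differed between the F4/80hi and F4/80lo gates of Ly6clo splenic macrophages. Macrophages of C57BL/6 mice aged 6 to 8 weeks were sorted from spleen by Ly6c and F4/80 and their total RNA was sequenced. The T-ALL (T cell acute lymphoblastic leukemia) libraries came from mice at day 15 after they received 1000000 GFP+ leukemia cells each without irradiation, in a model with a stated survival of 35 to 40 days. The normal libraries are those labelled as control, day 0. There was 1 library for each gate and state, so the comparison used 4 of the 6 libraries of the study: T-ALL Ly6cloF4/80hi, normal Ly6cloF4/80hi, T-ALL Ly6cloF4/80lo and normal Ly6cloF4/80lo. The remaining pair, T-ALL and normal Ly6chiF4/80lo, is given beside some results as a further set of values. The sources used here do not say whether mice were pooled or whether the gates of a state came from the same mice.

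For each gene the change with T-ALL was the T-ALL minus the normal value on the log2(FPKM + 1) scale, where FPKM is fragments per kilobase of transcript per 1000000 fragments. The F4/80lo change was then subtracted from the F4/80hi change. The result, called the difference of changes here, is above 0 where the T-ALL minus normal value was greater in F4/80hi. A gene entered if any of the 4 libraries had 5 FPKM or more of it, which kept 9317 of the 15760 genes listed in any of them. A gene that reached 5 FPKM in a single library entered through that library, so its call lends no support of its own. Named below, Tmem220, Podn, Gas6, Pdgfa, Ms4a3, Epx, Sptb, Tal1, Ackr1, Dntt, Saa3 and Fn1 are among such genes. With 1 library per gate and state no test was possible, and there is no replicate check on any value below. The 95% intervals given with single genes cover counting error only, and neither the spread between mice nor that between sorts. A gene is called higher or lower where the difference of changes was at least 1 or at most -1, a 2-fold difference between the changes on this scale, which understates ratios of genes with low levels. At the edges of these rules, St3gal6 lay just inside the higher threshold, Ifi207 just inside the lower threshold and Tigit just outside it, and Oaf with 5.0 FPKM was kept while Hgf with 4.99 FPKM was not.

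F4/80-high macrophages of the mouse spleen are mostly red pulp macrophages, which engulf aged red cells, break down their heme and return the iron to the blood. They depend on signalling through the receptor Csf1r, and their identity rests on transcription factors that include PU.1, Spi-C and PPARγ. The spleen is also a reserve site of red cell formation in the mouse, where erythroid precursors mature around F4/80-positive macrophages. T-ALL is a malignancy of immature T cells that commonly involves the spleen.

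The sorting markers followed the labels. Adgre1, which encodes F4/80, stood at 234 FPKM in T-ALL F4/80hi and 529 FPKM in normal F4/80hi, against 74.7 FPKM in T-ALL F4/80lo and 86.7 FPKM in normal F4/80lo. Ly6c2 lay between 11.8 and 21.4 FPKM in these 4 libraries, compared with 1405 FPKM in T-ALL Ly6chiF4/80lo and 482 FPKM in normal Ly6chiF4/80lo. Ly6c1 and Ly6c2 are near-identical, so reads may have been divided between them. The gates also held transcripts of other cells. Summed over 13 B cell genes the level was 2310 FPKM in T-ALL F4/80hi and 2275 FPKM in normal F4/80hi, against 2848 FPKM in T-ALL F4/80lo and 4173 FPKM in normal F4/80lo. In the 4 Ly6clo libraries no member of a list of 14 endothelial and stromal genes reached 5 FPKM, and the highest value was 1.41 FPKM. Estimated depth was 8680000 and 7660000 fragments in T-ALL and normal F4/80hi and 8310000 and 7880000 in T-ALL and normal F4/80lo.

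Among the 9317 genes, 328 (3.52%) were higher and 370 (3.97%) were lower, together 698 (7.49%). A difference of at least 2 was found for 19 genes (0.204%), and one of at most -2 for 36 genes (0.386%). The median difference over all genes was 0.04, and the 5th to 95th percentiles ran from -0.91 to 0.88. The split between directions depended on scaling. When each library was rescaled to a sum of 1000000, 219 genes were higher and 583 lower, so that 27.3% of the called genes were higher in place of 47.0%, and the median of all genes moved to -0.11. The counting interval excluded 0 for 324 of the 326 higher genes and 368 of the 369 lower genes that had a transcript length. These genes were chosen for a difference of at least 1 or at most -1, and the median counting error was 0.16. Exclusion of 0 was therefore nearly fixed in advance and lends the calls no support. The interval lay wholly past 1 for 101 of the higher and 140 of the lower genes.

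Most of the called genes moved in F4/80hi. Of the higher genes, 162 changed by at least 1 in F4/80hi alone, 23 in F4/80lo alone, 57 in both gates in the same direction, 3 in opposite directions, and 83 in neither. Of the lower genes, 222 changed in F4/80hi alone, 42 in F4/80lo alone, 16 in both in the same direction, 3 in opposite directions, and 87 in neither. Each gate's own change sets the background for these counts. In F4/80hi 983 genes (10.6%) were at least 2-fold up with T-ALL and 587 (6.3%) at least 2-fold down. In F4/80lo the counts were 543 (5.83%) up and 154 (1.65%) down.

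**Figure D1:**
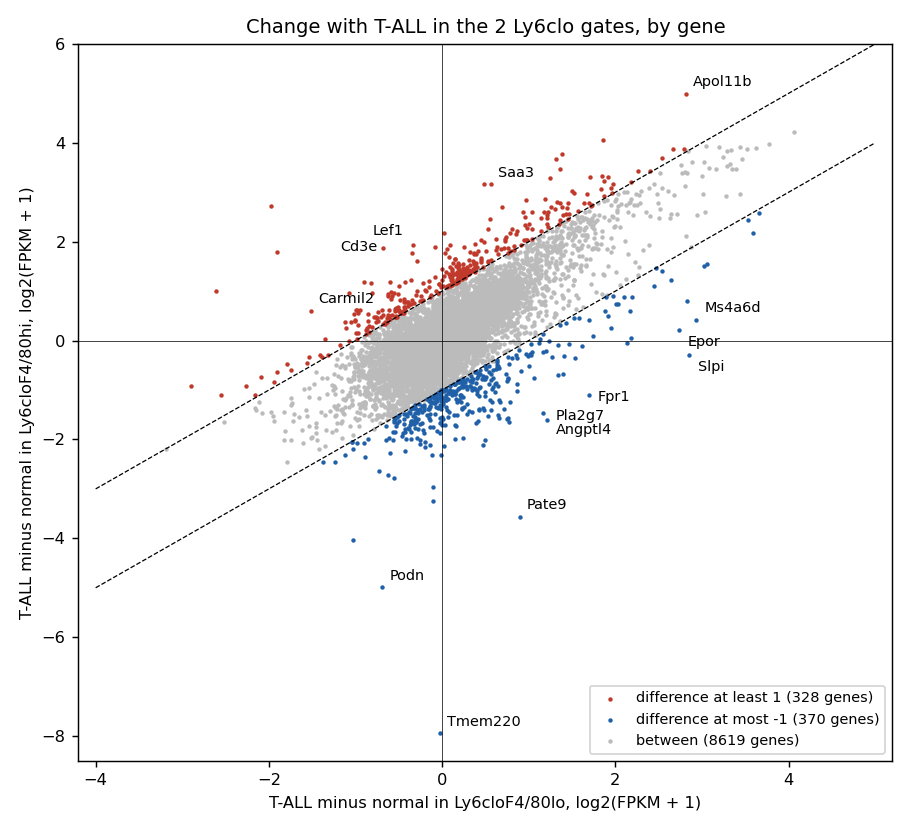
Change with T-ALL in Ly6cloF4/80hi (vertical axis) against the change in Ly6cloF4/80lo (horizontal axis), both T-ALL minus normal on the log2(FPKM + 1) scale, with 1 point per gene for 9317 genes. The dashed lines mark a difference of changes of 1 and -1; the 328 higher genes are red, the 370 lower genes blue, and Tmem220 lies farthest from the rest at -7.91.

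The called genes can also be read from the gap between the gates within each state, which uses the same 4 libraries and is therefore a description. The gates were at least 2-fold apart for 662 genes (7.11%) in T-ALL and for 1380 genes (14.8%) in normal mice, with 653 to 722 and 1310 to 1414 genes under the 3 rescalings. Of the 370 lower genes, 287 were at least 2-fold above F4/80lo in normal F4/80hi, while in T-ALL 104 were so and 244 lay within 2-fold. Of the 328 higher genes, 172 were at least 2-fold below F4/80lo in normal F4/80hi, while in T-ALL 2 were so and 259 lay within 2-fold. The rest of the higher genes included some that stood apart in T-ALL, since 67 were at least 2-fold above F4/80lo in T-ALL F4/80hi and 9 in normal F4/80hi. Since the difference of changes equals the gap in T-ALL minus the gap in normal mice, these movements follow from how the genes were chosen.

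**Figure D2:**
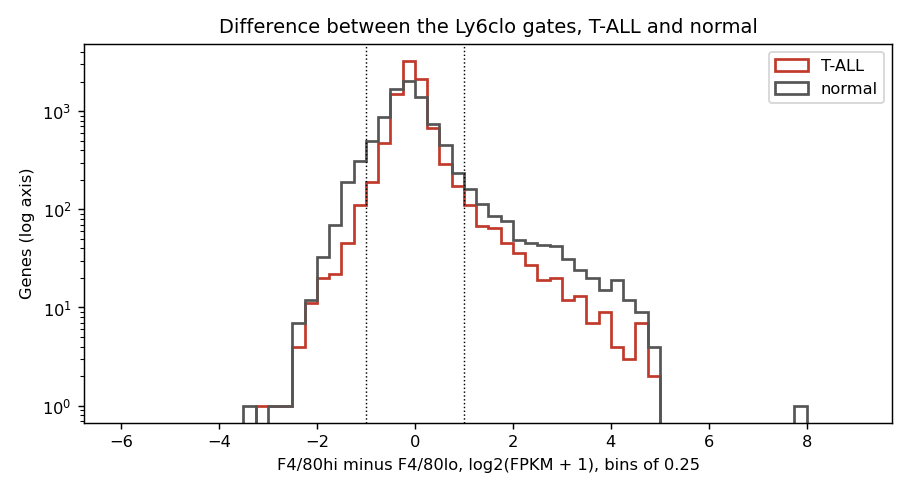
Number of genes (log axis) by the difference between the gates, F4/80hi minus F4/80lo on the log2(FPKM + 1) scale in bins of 0.25, in T-ALL (red) and in normal mice (grey), 1 library per gate and state. Beyond the dotted lines at 1 and -1 lie 662 genes in T-ALL and 1380 genes in normal mice.

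Among general macrophage genes the called members were all lower, and the background for the lower counts of this and the following lists is the 3.97% of all genes. The 3 lower members of a list of 14 general macrophage genes were Cd14, Csf1r and Fcgr1, and none was higher. Fcgr1 had only 2.45 and 3.48 FPKM in T-ALL and normal F4/80lo, so its difference of -1.06 depends on the 1 FPKM added. Csf1r, the receptor for CSF1 on which macrophages depend, stood at 574 FPKM in T-ALL F4/80hi and 1488 FPKM in normal F4/80hi. In F4/80lo it was at 256 FPKM with T-ALL and 218 FPKM in normal mice. The difference of changes was -1.61 (interval -1.67 to -1.54). Normal F4/80hi was the highest of the 4 libraries and both F4/80lo libraries stayed below both F4/80hi libraries. In Ly6chiF4/80lo Csf1r had 333 FPKM with T-ALL and 673 FPKM in normal mice, a change of -1.01 beside -1.37 in F4/80hi. Over the list the median change was -0.80 in F4/80hi, -0.31 in F4/80lo and -0.85 in Ly6chiF4/80lo. Cd14, a co-receptor for bacterial lipopolysaccharide, had 58.2 FPKM in T-ALL F4/80hi and 174 FPKM in normal F4/80hi, against 14.9 FPKM in T-ALL F4/80lo and 8.38 FPKM in normal F4/80lo. Its difference was -2.32, with a level that was lower with T-ALL in F4/80hi and higher with T-ALL in F4/80lo. Not every macrophage gene did this. Cd68, a lysosomal glycoprotein, had a difference of -0.64, Adgre1 one of -0.96, the leukocyte phosphatase gene Ptprc one of -0.27, and the integrin gene Itgam one of 0.01. In these bulk libraries fewer cells of a type and less RNA per cell cannot be told apart.

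Fc receptor genes, which bind antibody-coated particles, had 4 lower members and 0 higher members of 6, with a median of -1.09 beside 0.04 for all genes. Fcgr3 stood at 165 FPKM in T-ALL F4/80hi and 459 FPKM in normal F4/80hi, against 46.9 FPKM in T-ALL F4/80lo and 58.3 FPKM in normal F4/80lo, a difference of -1.16. Its normal F4/80hi level was the outlying one. Fcer1g, the signalling chain that several of these receptors share, had 1075 and 1760 FPKM in T-ALL and normal F4/80hi and 954 and 713 FPKM in T-ALL and normal F4/80lo, a difference of -1.13. Fcgr4 reached the same side in another way. It had 372 and 203 FPKM in T-ALL and normal F4/80hi and 425 and 92.0 FPKM in T-ALL and normal F4/80lo, so that its level was greater with T-ALL in both gates and more so in F4/80lo (difference -1.32). The inhibitory receptor Fcgr2b, named after its values were seen, had a difference of 0.17. In Ly6chiF4/80lo the median change of the list was -0.98, near the -1.07 of F4/80hi, whereas in F4/80lo it was -0.02.

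Receptors for microbial products had 2 called members. Of 12 Toll-like receptor genes 2 were lower and 0 higher, with a median of -0.64, and 4 were lower with libraries rescaled to a sum of 1000000. Tlr4, the receptor that works with Cd14, stood at 13 and 35.8 FPKM in T-ALL and normal F4/80hi and at 3.8 and 3.86 FPKM in T-ALL and normal F4/80lo, a difference of -1.37. Tlr8, an endosomal receptor for RNA, had 10.3 and 25.7 FPKM in T-ALL and normal F4/80hi and 6.37 and 3.95 FPKM in T-ALL and normal F4/80lo, a difference of -1.82. Tlr6 fell just short of the threshold at -0.99. Over the list the median change was -0.83 in F4/80hi, -0.20 in F4/80lo and -0.76 in Ly6chiF4/80lo. The 4 F4/80lo values of Tlr4 and Tlr8 all lay below the corresponding F4/80hi values of the same gene.

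Iron handling followed the gate in part. Of 18 genes for iron export, heme breakdown and iron storage 5 were lower and 0 higher, with a median of -0.51. The median change was -0.37 in F4/80hi, 0.13 in F4/80lo and -0.38 in Ly6chiF4/80lo. Slc11a1, the phagosomal metal transporter also called Nramp1, had 181 and 418 FPKM in T-ALL and normal F4/80hi and 95.2 and 60.05 FPKM in T-ALL and normal F4/80lo, a difference of -1.86 (interval -1.99 to -1.73). The heme transporter Slc48a1 had 90.1 and 216 FPKM in T-ALL and normal F4/80hi and 36.5 and 31.2 FPKM in T-ALL and normal F4/80lo, a difference of -1.47. Both stood lower with T-ALL in F4/80hi and higher with T-ALL in F4/80lo. Lrp1, an uptake receptor for heme-hemopexin complexes, differed by -1.65 and the hemoglobin-haptoglobin receptor Cd163 by -1.09. Cd163 stood at only 2.25 and 5.43 FPKM in T-ALL and normal F4/80lo, so its place past the threshold depends on the 1 FPKM added. The fifth, Hmox1, which encodes heme oxygenase and was named after its values were seen, had 634 and 2644 FPKM in T-ALL and normal F4/80hi and 73.7 and 153 FPKM in T-ALL and normal F4/80lo, a difference of -1.01. Here both gates were more than 2-fold lower with T-ALL. The exporter Slc40a1, named after its values were seen, also showed this shared pattern, with changes of -2.01 in F4/80hi and -1.45 in F4/80lo and a difference of only -0.56.

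The red pulp signature as a whole did not separate the gates strongly. Of its 16 genes 3 were lower (5 after quantile normalization) and 0 higher, with a median difference of -0.31, because the median change was -1.46 in F4/80hi and -1.02 in F4/80lo. In Ly6chiF4/80lo the median change was also -1.02. The 3 lower genes were Treml4 (-1.88), which encodes a receptor that binds dead cells, Cd163 (-1.09) and the adhesion gene Pecam1 (-1.08). Vcam1, the adhesion molecule that marks red pulp macrophages and named after its values were seen, changed by -1.54 in F4/80hi and -1.65 in F4/80lo. Levels differed greatly between the gates. Summed over the 16 genes they came to 3996 FPKM in T-ALL F4/80hi and 11129 FPKM in normal F4/80hi, against 568 FPKM in T-ALL F4/80lo and 859 FPKM in normal F4/80lo. Both F4/80lo sums lay below both F4/80hi sums.

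Of 16 macrophage transcription factor genes 3 were lower (5 after quantile normalization) and 0 higher, with a median of -0.62. The median change was -0.75 in F4/80hi, -0.30 in F4/80lo and -0.51 in Ly6chiF4/80lo. Maf, which encodes c-Maf, had 5.65 and 30.4 FPKM in T-ALL and normal F4/80hi and 0.71 and 1.31 FPKM in T-ALL and normal F4/80lo, a difference of -1.80. Id2, an inhibitor of E proteins, had 246 and 662 FPKM in T-ALL and normal F4/80hi and 169 and 206 FPKM in T-ALL and normal F4/80lo, a difference of -1.15. Pparg, which encodes PPARγ, had 42.8 and 73.5 FPKM in T-ALL and normal F4/80hi and 31.5 and 14.6 FPKM in T-ALL and normal F4/80lo, a difference of -1.83. For Pparg the larger movement was the more than 2-fold higher level with T-ALL in F4/80lo. Spic, which encodes Spi-C and was named after its values were seen, changed by -1.34 in F4/80hi and -0.59 in F4/80lo, a difference of -0.76.

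Of 16 apoptotic cell uptake genes 4 were lower and 0 higher, with a median of -0.40. They were Lrp1, the integrin gene Itgb5 (-1.61), the bridging ligand gene Gas6 (-1.44) and the lysosomal DNase gene Dnase2a (-1.17), the last named after its values were seen. The median change of that list was -1.06 in F4/80hi, -0.18 in F4/80lo and -0.70 in Ly6chiF4/80lo. Of 17 growth and niche factor genes 6 passed the filter, of which 3 were lower and 0 higher. Gas6 and Pdgfa reached 5 FPKM in normal F4/80hi alone. Pdgfa, a platelet-derived growth factor, had 2.21 and 8.45 FPKM in T-ALL and normal F4/80hi and 0.36 and 0.51 FPKM in T-ALL and normal F4/80lo, a difference of -1.41. Il15, a survival factor for natural killer and memory T cells, had 9.76 and 26.3 FPKM in T-ALL and normal F4/80hi and 5.75 and 6.11 FPKM in T-ALL and normal F4/80lo, a difference of -1.27. The ligand gene Wnt4 had a difference of -1.33. In all 3 the F4/80lo change lay between -0.17 and -0.07.

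Promoter windows were compared for the binding word of PU.1, a transcription factor of macrophages. The word GAGGAA or its reverse TTCCTC, sought on both strands from 250 bases before to 50 after each listed gene start, was present for 37.9% of the 298 lower genes with a window, 27.5% of the 269 higher genes and 31% of all 7612 genes with one. It was present in 27.2% of the 9709 single windows. The windows of Fcgr3 and Slc11a1 are printed because both genes were lower and both windows hold the word; RefSeq sequences of GRCm38.p6 are given 5′ to 3′ on the gene's strand, with the word in capitals.
Fcgr3, chr1:171059354-171059653, minus strand: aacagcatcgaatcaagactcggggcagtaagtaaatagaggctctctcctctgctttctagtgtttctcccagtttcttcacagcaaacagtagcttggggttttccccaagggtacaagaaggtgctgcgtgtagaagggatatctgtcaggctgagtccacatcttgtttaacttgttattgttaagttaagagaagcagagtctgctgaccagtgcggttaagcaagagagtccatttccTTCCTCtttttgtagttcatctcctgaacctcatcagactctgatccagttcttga
Slc11a1, chr1:74374953-74375252, plus strand: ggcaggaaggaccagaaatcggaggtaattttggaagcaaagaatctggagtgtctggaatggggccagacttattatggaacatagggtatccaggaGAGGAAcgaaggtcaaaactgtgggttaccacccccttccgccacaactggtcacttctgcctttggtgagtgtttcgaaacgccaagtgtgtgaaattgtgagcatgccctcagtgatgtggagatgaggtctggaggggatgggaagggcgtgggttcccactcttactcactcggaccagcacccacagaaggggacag
In Fcgr3 the word begins 6 bases before the listed start and in Slc11a1 152 bases before it. A match of letters is a description and says nothing about occupancy by PU.1.

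Several of the lowest genes stood far higher in normal F4/80hi than in the other 5 libraries. Tmem220, a transmembrane protein gene, had 1.82 FPKM in T-ALL F4/80hi and 694 FPKM in normal F4/80hi, against 1.88 FPKM in T-ALL F4/80lo and 1.94 FPKM in normal F4/80lo. The Ly6chiF4/80lo libraries held 1.57 FPKM with T-ALL and 1.95 FPKM in normal mice, so 1 library of 6 carried the whole difference of -7.91. Podn, which encodes the matrix proteoglycan podocan, had 0.65 and 51.1 FPKM in T-ALL and normal F4/80hi and less than 1 FPKM in both F4/80lo libraries, a difference of -4.29. Pate9 (-4.46), Mfsd4b5 (-3.13), Serpina1a (-3.0) and the potassium channel gene Kcnj15 (-2.86) were likewise highest in normal F4/80hi. Serpina1a belongs to a family of near-identical copies, so its value is uncertain. Each of these values rests on that single library.

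A smaller set of lower genes moved in F4/80lo. Slpi, a secreted inhibitor of neutrophil elastase, had 911 and 1109 FPKM in T-ALL and normal F4/80hi and 489 and 67.0 FPKM in T-ALL and normal F4/80lo, a difference of -3.13 (interval -3.31 to -2.96). The normal F4/80lo library was the low one, and the other 3 lay between 489 and 1109 FPKM. In Ly6chiF4/80lo, Slpi stood at 3449 FPKM with T-ALL and 157 FPKM in normal mice. Ms4a6d, a membrane protein gene of myeloid cells, had 36.0 and 26.5 FPKM in T-ALL and normal F4/80hi and 46.7 and 5.26 FPKM in T-ALL and normal F4/80lo, a difference of -2.5. Iigp1, an interferon-γ inducible GTPase gene, had 21.6 and 20.9 FPKM in T-ALL and normal F4/80hi and 6.60 and 0.68 FPKM in T-ALL and normal F4/80lo, a difference of -2.13. Cd300e, a receptor of patrolling monocytes, had 104 and 113 FPKM in T-ALL and normal F4/80hi and 171 and 54.9 FPKM in T-ALL and normal F4/80lo, a difference of -1.74. In all 4 the F4/80hi change was within 0.43 of 0 while the F4/80lo level was higher with T-ALL. Of 10 patrolling monocyte genes only Cd300e was lower and 0 were higher. The median difference of that list was -0.17, and 4 of its 10 genes had a difference above 0.

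Granule protease genes of myeloid progenitors stood higher with T-ALL in both gates and, on the log2(FPKM + 1) scale, more so in F4/80lo. Of 9 myeloid progenitor granule genes 4 were lower and 0 higher, namely Ms4a3 (-1.5), Ctsg (-1.41), Elane (-1.41) and Mpo (-1.10), the last named after its values were seen. Ctsg, which encodes cathepsin G, had 13.1 and 2.12 FPKM in T-ALL and normal F4/80hi and 49.5 and 3.20 FPKM in T-ALL and normal F4/80lo. Ms4a3 had 2.23 and 0.13 FPKM in T-ALL and normal F4/80hi and 16.5 and 1.16 FPKM in T-ALL and normal F4/80lo. At such low levels its difference depends on the 1 FPKM added to each value. Of 5 eosinophil genes 3 were lower and 0 higher, namely Prg2 (-1.5), Epx (-1.27) and Ear2 (-1.15), the last a member of a family of close copies. Prg2, which encodes the eosinophil major basic protein, had 23.3 and 7.28 FPKM in T-ALL and normal F4/80hi and 107 and 12 FPKM in T-ALL and normal F4/80lo. Of 7 basophil and mast cell genes 1 was lower and 0 higher, with a median of -0.30. This was the basophil protease gene Mcpt8, which had 39.6 and 5.77 FPKM in T-ALL and normal F4/80hi and 106 and 7.43 FPKM in T-ALL and normal F4/80lo, a difference of -1.07. Over the whole progenitor list the summed level was 176 FPKM in T-ALL F4/80hi and 217 FPKM in normal F4/80hi, against 412 FPKM in T-ALL F4/80lo and 157 FPKM in normal F4/80lo. In normal F4/80hi 186 FPKM of that sum came from Igsf6, a myeloid surface gene named after its values were seen. No member of that list was listed at 0 in either F4/80hi library, and the part of such cells in these results was not tested.

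Genes that passed 2-fold in opposite directions were rare, 3 among the lower and 3 among the higher. Angptl4, a secreted inhibitor of lipoprotein lipase, had 16.6 and 52.2 FPKM in T-ALL and normal F4/80hi and 6.22 and 2.13 FPKM in T-ALL and normal F4/80lo. Fpr1, the receptor for formylated bacterial peptides, had 97.2 and 211 FPKM in T-ALL and normal F4/80hi and 29 and 8.29 FPKM in T-ALL and normal F4/80lo. Pla2g7, a secreted phospholipase that degrades platelet-activating factor, had 93.2 and 260 FPKM in T-ALL and normal F4/80hi and 127 and 56.0 FPKM in T-ALL and normal F4/80lo. The differences were -2.81, -2.80 and -2.64. Angptl4 and Fpr1 kept their gate order in both states, whereas Pla2g7 was above F4/80lo in normal F4/80hi and below it in T-ALL F4/80hi. The 3 higher genes of this kind were H2ac10, H2ac12 and Rsc1a1, named after their values were seen. All 3 were under 10 FPKM in all 4 libraries and were not listed in T-ALL F4/80lo. The histone genes have near-identical copies, so their values are uncertain.

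**Figure D3:**
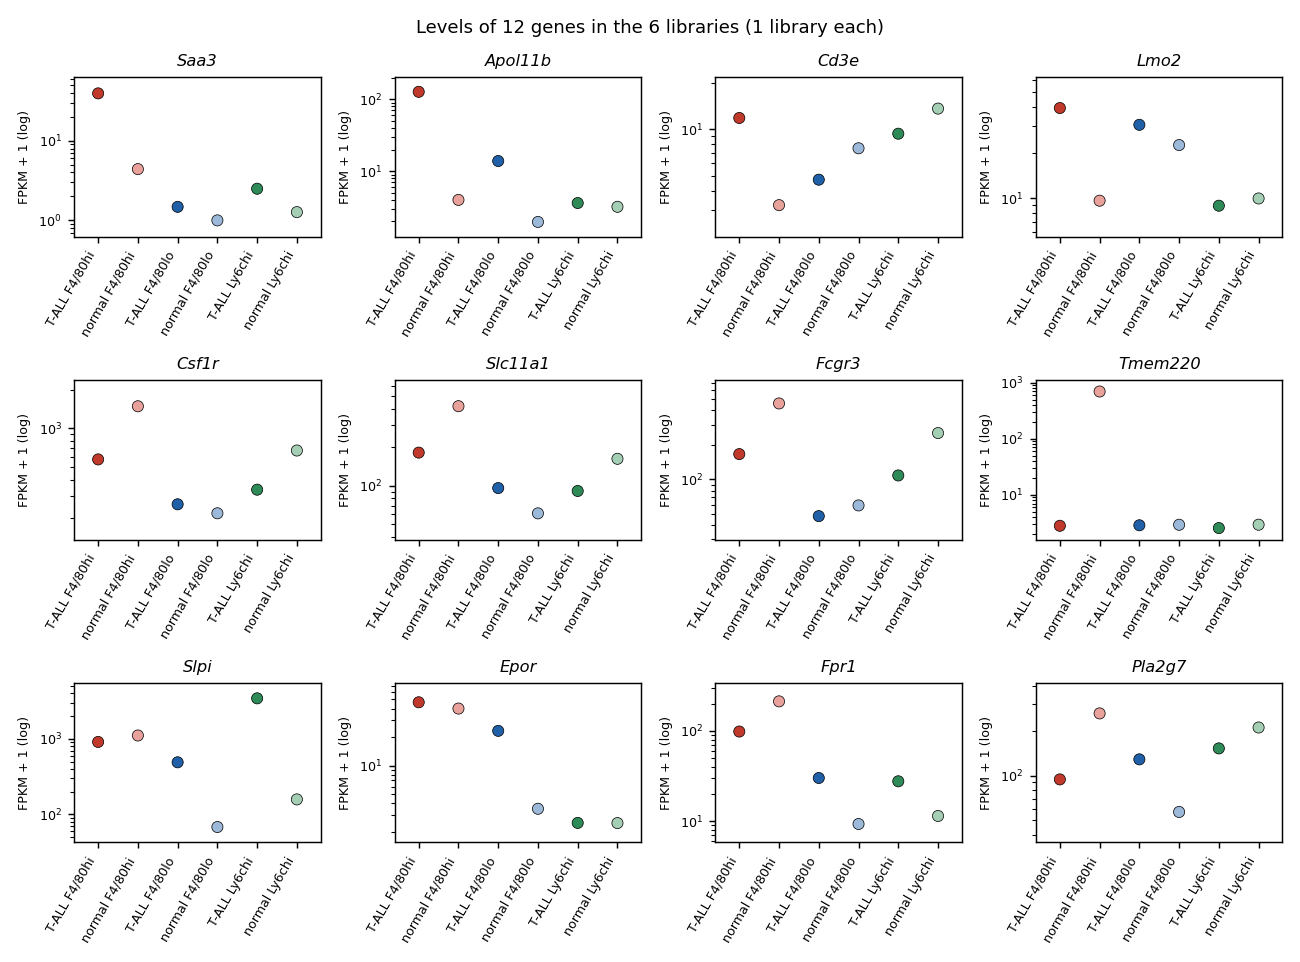
Levels of 12 genes as FPKM + 1 on a log axis whose range differs between panels, 1 point for each of the 6 libraries, T-ALL left of normal within each gate. Csf1r, Slc11a1, Fcgr3 and Tmem220 are highest in normal F4/80hi; Slpi and Epor have their low F4/80lo value in normal mice; Saa3 and Apol11b are highest in T-ALL F4/80hi.

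Among the higher genes the list with the most called members was that of cytosolic ribosomal proteins, the structural proteins of the translating ribosome. Of 76 genes 54 were higher, where 3.52% of all genes were, and 0 lower. All 76 had a difference above 0, also under each rescaling, with a median of 1.09. They made up 16.5% of all higher genes. The count fell to 25 when libraries were rescaled to a sum of 1000000 and to 24 after quantile normalization, with medians of 0.93 and 0.90. Their median level was 875 FPKM in T-ALL F4/80hi and 352 FPKM in normal F4/80hi, against 983 FPKM in T-ALL F4/80lo and 865 FPKM in normal F4/80lo. Normal F4/80hi was thus the low library of the 4, and all 76 genes were within 2-fold between the gates in T-ALL.

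The differences ran from 0.49 to 1.44 over the 76 genes, and those of Rpl30 and Rps24 were the 2 largest. Rpl30, a protein of the large subunit, had 579 and 213 FPKM in T-ALL and normal F4/80hi and 683 and 684 FPKM in T-ALL and normal F4/80lo, a difference of 1.44. Rps24, of the small subunit, had 783 and 265 FPKM in T-ALL and normal F4/80hi and 959 and 876 FPKM in T-ALL and normal F4/80lo, a difference of 1.43. The change was at least 1 for 67 genes in F4/80hi and for 1 in F4/80lo. It was also at least 1 for 51 genes in Ly6chiF4/80lo, where the median level was 785 FPKM with T-ALL and 346 FPKM in normal mice. Many ribosomal protein genes have processed pseudogenes that could take some of their reads. Short transcripts were more common among the higher genes, whose median length was 1482.5 nt, compared with 2039.5 nt for lower genes and 1973.25 nt for all genes; the part of length in this group was not tested. The mitochondrial ribosomal proteins, with 75 genes, had 0 higher and 0 lower members and a median of 0.20.

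**Figure D4:**
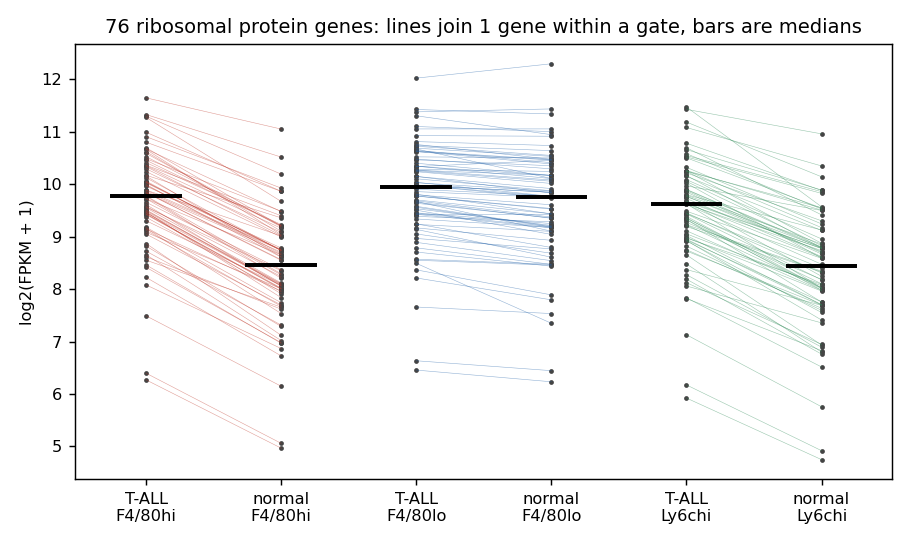
Levels of 76 cytosolic ribosomal protein genes on the log2(FPKM + 1) scale in the 6 libraries, 1 point per gene, with lines that join a gene within a gate and bars at the median. The T-ALL and normal medians are apart in F4/80hi and in Ly6chiF4/80lo and close together in F4/80lo.

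Erythroid genes stood higher with T-ALL in both gates, and some of them more so in F4/80hi; the background for the higher counts of this and the following lists is the 3.52% of all genes. Of 18 red cell membrane and transport genes 5 were higher and 0 lower, and all 18 had a difference above 0, with a median of 0.72. With libraries rescaled to a sum of 1000000 3 were higher. Sptb, which encodes the membrane skeleton protein β-spectrin, had 14.6 and 0.55 FPKM in T-ALL and normal F4/80hi and 3.58 and 0.27 FPKM in T-ALL and normal F4/80lo, a difference of 1.48. Gypc, which encodes glycophorin C, had 60.1 and 11.7 FPKM in T-ALL and normal F4/80hi and 46.6 and 26.1 FPKM in T-ALL and normal F4/80lo, a difference of 1.45. Tspan33 (1.47) and the Rh-associated glycoprotein gene Rhag (1.09), the last named after its values were seen, were also higher. Summed over the list the level was 2392 FPKM in T-ALL F4/80hi and 215 FPKM in normal F4/80hi, against 1389 FPKM in T-ALL F4/80lo and 204 FPKM in normal F4/80lo. No member was listed at 0 in T-ALL or normal F4/80hi. The part of erythroid cells, whether sorted along or engulfed, was not tested.

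Of 12 erythroid transcription factors and receptors 4 were higher and 1 lower. Lmo2, a bridging protein of the erythroid transcription complex, had 38.4 and 8.63 FPKM in T-ALL and normal F4/80hi and 29.5 and 21.4 FPKM in T-ALL and normal F4/80lo, a difference of 1.59. Tal1, a basic helix-loop-helix factor of the same complex that was first known from a chromosomal translocation in human T-ALL, had 6.22 and 0.19 FPKM in T-ALL and normal F4/80hi and 2.66 and 0.57 FPKM in T-ALL and normal F4/80lo, a difference of 1.38. The transferrin receptor gene Tfrc (1.36) and the erythroid factor gene Nfe2 (1.32) were named after their values were seen. Epor, the erythropoietin receptor gene, went the other way. It had 45.7 and 39.1 FPKM in T-ALL and normal F4/80hi and 22.3 and 2.51 FPKM in T-ALL and normal F4/80lo, a difference of -2.51, so that its normal F4/80lo level was the low one of the 4. Of 6 globin genes 1 was higher, Hbq1b (1.36), which had 13.8 and 0.58 FPKM in T-ALL and normal F4/80hi and 2.65 FPKM in T-ALL F4/80lo and was listed at 0 in normal F4/80lo; with a pseudocount of 0.1 its difference was -0.43. The list's median difference was -0.22. Hbb-bs had 11701 and 1495 FPKM in T-ALL and normal F4/80hi and 1541 and 141 FPKM in T-ALL and normal F4/80lo, changes of 2.97 and 3.44. The near-identical Hba and Hbb copies share reads, so single globin values are uncertain.

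In heme synthesis 2 of 13 genes were higher and 0 lower. Slc25a37, which encodes the mitochondrial iron importer mitoferrin-1, had 58.3 and 14.9 FPKM in T-ALL and normal F4/80hi and 23.1 and 19.2 FPKM in T-ALL and normal F4/80lo, a difference of 1.65. Abcb10, its mitochondrial partner, differed by 1.24. Ackr1, an atypical chemokine receptor of red cells and venules, had the largest positive difference among the genes named by rule. It stood at 14.2 and 0.69 FPKM in T-ALL and normal F4/80hi and at 3.05 and 1.90 FPKM in T-ALL and normal F4/80lo, a difference of 2.69 (interval 1.90 to 3.48). T-ALL F4/80hi was the highest of the 4 for each of these genes.

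The promoter windows of the higher genes were compared for the word bound by GATA factors, which drive erythroid genes. AGATAA or its reverse TTATCT, sought on both strands of the same windows, was present for 15.6% of the 269 higher genes with a window, 9.06% of the 298 lower genes and 8.22% of all 7612 genes with one, and in 6.84% of the 9709 single windows. The windows of Tal1 and Ackr1 are printed because both genes were higher and both windows hold the word, which is in capitals.
Tal1, chr4:115056176-115056475, plus strand: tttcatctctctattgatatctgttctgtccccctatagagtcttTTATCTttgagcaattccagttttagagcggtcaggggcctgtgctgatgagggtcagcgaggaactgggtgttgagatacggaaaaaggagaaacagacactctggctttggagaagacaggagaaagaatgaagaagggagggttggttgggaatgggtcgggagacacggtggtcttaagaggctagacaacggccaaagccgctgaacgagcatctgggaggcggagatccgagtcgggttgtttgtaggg
Ackr1, chr1:173333454-173333753, minus strand: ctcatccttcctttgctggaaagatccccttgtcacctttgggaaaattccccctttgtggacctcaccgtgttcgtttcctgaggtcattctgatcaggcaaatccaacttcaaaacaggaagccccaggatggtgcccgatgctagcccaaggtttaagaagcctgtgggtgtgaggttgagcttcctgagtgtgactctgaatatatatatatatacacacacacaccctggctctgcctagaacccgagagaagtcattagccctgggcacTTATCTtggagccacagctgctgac
In Tal1 the word begins 205 bases before the listed start and in Ackr1 25 bases after it. As above, these are matches of letters in RefSeq windows of GRCm38.p6.

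Cell division genes were higher with T-ALL in both gates. Of 21 mitosis and G2/M genes 3 were higher and 0 lower, and all 21 had a difference above 0, with a median of 0.78. Ccna2, which encodes cyclin A2, had 105 and 11.6 FPKM in T-ALL and normal F4/80hi and 71.9 and 19.4 FPKM in T-ALL and normal F4/80lo, a difference of 1.23. Mki67, the proliferation marker Ki-67, had 25.5 and 3.51 FPKM in T-ALL and normal F4/80hi and 17.1 and 5.73 FPKM in T-ALL and normal F4/80lo, a difference of 1.13. Birc5 was the other, at 1.01. Of 24 DNA replication and G1/S genes 0 were higher and 1 lower, and 21 had a difference above 0. The lower one, E2f1 (-1.49), stood at 9.70 and 18.4 FPKM in T-ALL and normal F4/80hi and at 13.3 and 8.26 FPKM in T-ALL and normal F4/80lo. Its relative E2f2 was among the higher genes, with 29.4 and 8.95 FPKM in T-ALL and normal F4/80hi and 19.1 and 23.7 FPKM in T-ALL and normal F4/80lo (1.91).

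T cell genes had more higher members than lower ones. Of 13 genes 7 were higher, beside 3.52% of all genes, and 0 lower. All 13 had a difference above 0, and the median was 1.07. Cd3e, a chain of the T cell receptor complex, had 10.8 and 2.22 FPKM in T-ALL and normal F4/80hi and 3.71 and 6.53 FPKM in T-ALL and normal F4/80lo, a difference of 2.56 (interval 1.93 to 3.18). Tcf7, which encodes the T cell factor TCF1, had 15.4 and 2.60 FPKM in T-ALL and normal F4/80hi and 6.63 and 6.49 FPKM in T-ALL and normal F4/80lo, a difference of 2.16. In both genes normal F4/80hi was the lowest and T-ALL F4/80hi the highest of the 4. Cd3g (2.12), the related factor gene Lef1 (2.27) and the signalling adaptor gene Sh2d1a (1.97) were also high on the list of all genes. Of 7 immature T cell and Notch target genes 2 were higher and 1 lower, with a median of 0.32, the higher ones being Dntt and Dtx1 (1.54) and the lower one Cd1d1 (-1.35). Dntt, the terminal transferase of immature lymphocytes, had 16.5 and 0.38 FPKM in T-ALL and normal F4/80hi and 2.70 and 0.49 FPKM in T-ALL and normal F4/80lo, a difference of 2.35. Summed over the T cell list the level was 197 FPKM in T-ALL F4/80hi and 140 FPKM in normal F4/80hi, against 178 FPKM in T-ALL F4/80lo and 278 FPKM in normal F4/80lo. The part of T cells or leukemia cells was not tested.

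Some genes outside the lists above were highest in T-ALL F4/80hi among the Ly6clo libraries. Saa3, an acute phase serum amyloid gene of macrophages, had 38.5 and 3.41 FPKM in T-ALL and normal F4/80hi. It was at 0.48 FPKM in T-ALL F4/80lo and was listed at 0 in normal F4/80lo, a difference of 2.60. Both F4/80lo levels of Saa3 lay below the 1 FPKM added, so its place past the threshold depends on that addition. Apol11b, of the apolipoprotein L family, had 126 and 2.99 FPKM in T-ALL and normal F4/80hi and 12.9 and 0.97 FPKM in T-ALL and normal F4/80lo, a difference of 2.18. Fn1, which encodes fibronectin, had 10.7 and 2.42 FPKM in T-ALL and normal F4/80hi and 1.32 and 1.27 FPKM in T-ALL and normal F4/80lo, a difference of 1.74. For all 3 the T-ALL F4/80hi level was more than 3-fold above that of each of the other 3 Ly6clo libraries. In Ly6chiF4/80lo, however, Fn1 had 5.95 FPKM with T-ALL and 14.7 FPKM in normal mice. C4b, of the classical complement pathway, had a difference of 1.49, the antiviral gene Rsad2 one of 1.29, and Ctse, which encodes cathepsin E of erythroid and immune cells, one of 1.15. Each was the single higher member of its list, namely complement with 11 genes, type I interferon response with 22 and lysosome with 24. Most lysosome genes went the other way, with 21 differences below 0 and 3 above and a median of -0.36. The interferon list had 13 below 0 and 9 above, with a median of -0.32. Complement had 7 above 0 and 4 below, with a median of 0.33, and its member Vsig4 was lower (-1.24). With libraries rescaled to equal sums, 0 lysosome genes were higher.

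Neutrophil genes were called higher because their levels were less reduced in F4/80hi. Of 12 genes 6 were higher and 1, the receptor gene Csf3r, was lower (-1.03, named after its values were seen). S100a9, a calcium-binding protein of neutrophils, had 46.3 and 77.5 FPKM in T-ALL and normal F4/80hi and 21.9 and 96.8 FPKM in T-ALL and normal F4/80lo, a difference of 1.36. The granule peptide gene Camp had 14.2 and 20.1 FPKM in T-ALL and normal F4/80hi and 6.71 and 25.6 FPKM in T-ALL and normal F4/80lo, a difference of 1.32. All 4 levels were low beside those of T-ALL and normal Ly6chiF4/80lo, which were 10296 and 2653 FPKM for S100a9 and 3714 and 1339 FPKM for Camp. The summed level of the list was 284 FPKM in T-ALL F4/80hi and 444 FPKM in normal F4/80hi, against 288 FPKM in T-ALL F4/80lo and 629 FPKM in normal F4/80lo.

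Other lists stayed within the threshold. The 10 MHC class II genes, which present antigen to CD4 T cells, had 0 higher and 0 lower members, but all 10 had a difference above 0, 9 of them with libraries rescaled to a sum of 1000000 and 8 after quantile normalization. The median difference was 0.57, and the median change was -0.33 in F4/80hi and -0.91 in F4/80lo. H2-Eb1 had 1357 and 1606 FPKM in T-ALL and normal F4/80hi and 2114 and 4115 FPKM in T-ALL and normal F4/80lo, a difference of 0.72. B cell genes, whose summed levels are given above, had 0 of 13 past the threshold and a median of 0.55. The constitutive proteasome (34 genes, median 0.18), tRNA synthetases (20 genes, 0.22) and endoplasmic reticulum chaperones (15 genes, -0.22) also had no member past 1. In all, 14 of the 52 lists with a kept member had no gene past 1, with medians from -0.28 to 0.68.

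**Figure D5:**
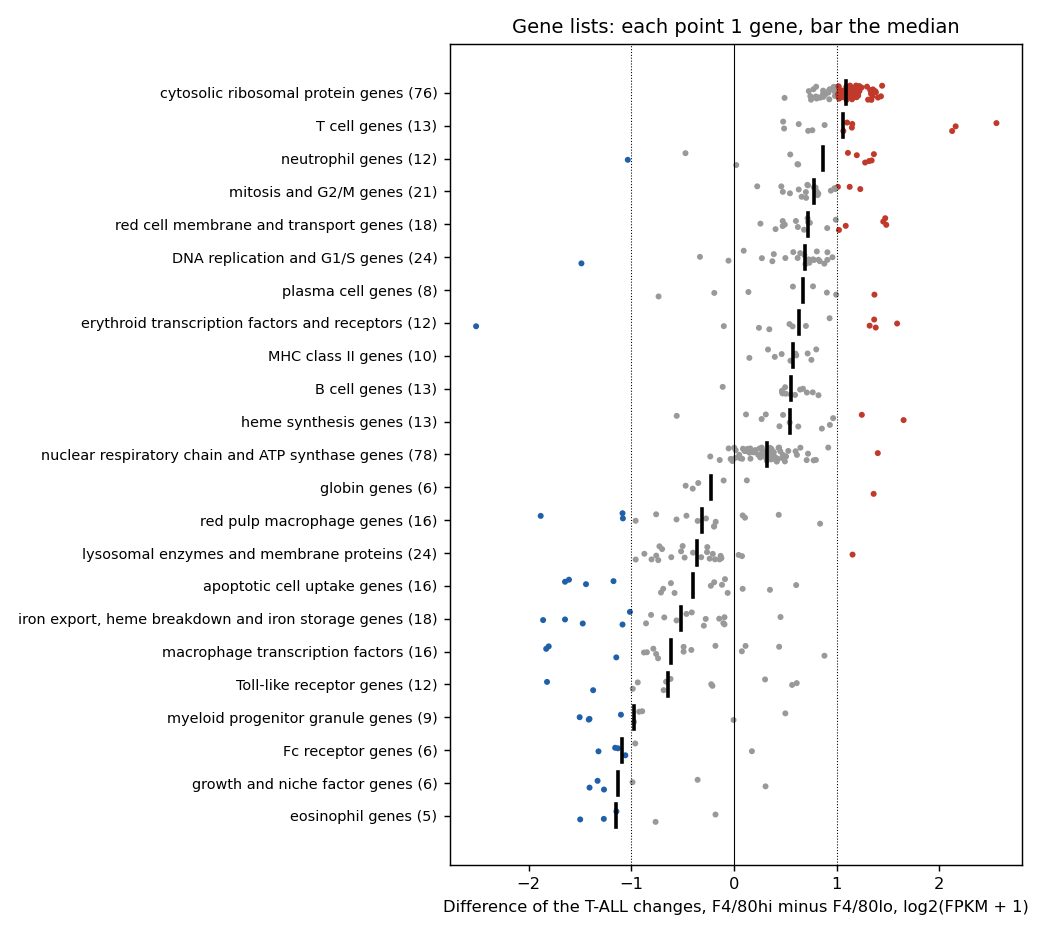
Difference of the T-ALL changes, F4/80hi minus F4/80lo on the log2(FPKM + 1) scale, for the kept members of 23 gene lists, 1 point per gene and a bar at the median, with the number of genes in parentheses. Ribosomal protein and T cell genes have medians of 1.09 and 1.07, and Fc receptor genes one of -1.09; dotted lines mark 1 and -1.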

How the data were processed

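Per the labels' protocols, the sorted cells were lysed for a QIAGEN RNeasy kit, and libraries were run by an Illumina HiSeq protocol. The authors deposited FPKM per gene; Bowtie2 2.2.5 and RSEM appear in the submitters' processing notes. Which genome build and annotation they used is not given in the sources here. The tables list Entrez identifiers, and 16017 of 16058 (99.7%) were given a symbol from RefSeq names of GRCm38.p6. A gene missing from a table was taken as 0, and 21 of the 9317 kept genes were missing from at least 1 of the 4 tables.

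Values were analysed as log2(FPKM + 1) with Python 3.11.15, numpy 2.4.6, pandas 2.3.3 and matplotlib 3.10.9. The difference of changes is the T-ALL minus normal value in Ly6cloF4/80hi minus that in Ly6cloF4/80lo, for genes of at least 5 FPKM in 1 library. The 6 libraries form 6 groups of 1, so nothing was tested. Depth was estimated from the spacing of low FPKM values of 411 to 448 genes with a single transcript length in GENCODE M21, and lay between 6650000 and 8680000 fragments. Counting intervals (95%) follow from that depth and the transcript length, and the median counting error of a difference was 0.16 on the log2 scale. The calculation was tested on simulated data.

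The members and the 53 gene lists were chosen with earlier results of these data known, and support nothing on their own. Genes were named by rule: 7 general markers, the 15 highest and 15 lowest differences among genes of at least 10 FPKM, up to 3 members per list with the largest absolute difference, and the 4 largest per pattern of the 2 changes. Receptor segments, predicted genes and unnamed identifiers were passed over. Other names were chosen after their values were seen. Some genes are not reported here. The alternatives were other pseudocounts, filters, scalings and comparators, and rescalings of the gap between gates and of the signs within lists were added after seeing the data.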

Additional observations from a re-analysis of the deposited data

Results flagged for a closer look

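Angptl4, Fpr1 and Pla2g7 stood out because the T-ALL and normal libraries differed by more than 2-fold in opposite directions in the 2 Ly6clo gates, lower with T-ALL in F4/80hi and higher with T-ALL in F4/80lo. The changes on the log2(FPKM + 1) scale were -1.60 in F4/80hi and 1.21 in F4/80lo for Angptl4, a difference of -2.81. For Fpr1 they were -1.11 and 1.69, a difference of -2.80, and for Pla2g7 -1.47 and 1.17, a difference of -2.64. With 1 library per gate and state these differences were not tested. In Ly6chiF4/80lo the changes were 0.37 for Angptl4, 1.28 for Fpr1 and -0.46 for Pla2g7.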

How the results depend on the processing

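No paired analysis was possible because each gate and state has 1 library, which also means that no replicate could be left out. The counts of 328 higher and 370 lower genes stayed within 1.5 times of these values under a pseudocount of 0.1, without the filter, with a filter of 10 FPKM, only genes listed in all 4 files, median-ratio rescaling, quantile normalization and the mean of both F4/80lo gates as comparator. With a pseudocount of 5 FPKM they were 147 and 190. With libraries rescaled to a sum of 1000000, 583 genes were lower and 219 higher. With Ly6chiF4/80lo in place of Ly6cloF4/80lo, 537 were higher and 331 lower. A similar count did not mean the same genes. Against the mean of both F4/80lo gates, 136 of the 328 higher and 205 of the 370 lower genes kept their call. Against Ly6chiF4/80lo, 107 of the higher and 141 of the lower genes did. Of 102 named genes past the threshold, 98 remained past it on the same side after rescaling to a sum of 1000000 and 96 with a pseudocount of 0.1. The number was 80 with a pseudocount of 5 FPKM, 71 against the mean of both F4/80lo gates and 54 against Ly6chiF4/80lo. Hbq1b turned to -0.43 with a pseudocount of 0.1. Among the named results past the threshold, the sign turned against Ly6chiF4/80lo for the Fc receptor median (0.031), Epor (0.21), Ms4a6d (0.24), Hpn (0.15), Fcgr1 (0.065), Fcgr4 (0.048), Fcer1g (0.015), Abca9 (0.087), Rhob (-2.07), Hspa1a (1.11), Cxcl2 (-0.81), S100a9 (-2.69), Retnlg (-3.93), Camp (-1.94), Itga2b (0.72), Mcpt8 (1.22), Prg2 (0.17) and Rps24 (-0.047). Against the mean of both gates it turned for Rhob (-0.51), Hspa1a (0.012), S100a9 (-0.66), Retnlg (-1.29), Camp (-0.31) and Mcpt8 (0.071). The cause was not tested. Counting error weighs most on low genes, and 60 higher and 92 lower genes stayed under 10 FPKM.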

Other observations

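The 8 plasma cell genes had a median change with T-ALL of 1.5 in F4/80hi and 0.86 in F4/80lo. Mzb1, a chaperone for antibody assembly, had 472 and 101 FPKM in T-ALL and normal F4/80hi and 457 and 196 FPKM in T-ALL and normal F4/80lo. Jchain, which joins IgM and IgA multimers, had 876 and 187 FPKM in T-ALL and normal F4/80hi and 941 and 376 FPKM in T-ALL and normal F4/80lo. For both genes normal F4/80hi was the lowest of the 4 libraries. Sdc1, the plasma cell surface proteoglycan, had 22.2 and 4.42 FPKM in T-ALL and normal F4/80hi and 18.4 and 10.7 FPKM in T-ALL and normal F4/80lo, and with a difference of 1.37 it was the single higher gene of the 8 in its list.

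Immediate early genes, which respond within a short time to stimulation, had a median change with T-ALL of -1.33 in F4/80hi and -1.11 in F4/80lo. Atf3 had 25.1 and 118 FPKM in T-ALL and normal F4/80hi and 20.3 and 194 FPKM in T-ALL and normal F4/80lo, a difference of 0.99. Rhob (1.06) was higher and Klf4 (-1.17) lower among the 20 genes of that list, whose median difference was -0.11. Their summed level was 1454 and 4331 FPKM in T-ALL and normal F4/80hi and 1607 and 4389 FPKM in T-ALL and normal F4/80lo, so both normal libraries stood above both T-ALL libraries.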
